A study of Mus musculus with 8 samples.

Results

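The small nucleolar RNA (snoRNA) host long noncoding RNAs Gas5, Snhg1, Snhg3, Snhg4, Snhg5, Snhg6, Snhg8, Snhg11 and Snhg12 were examined in fully grown mouse oocytes lacking CNOT7 and CNOT8. These 9 genes were taken by symbol from the deposited count table, where 8 of them were found among 46078 genes, and all 8 were among the 19241 genes tested. Snhg1 was not analyzed here. Germinal vesicle (GV) oocytes, which are arrested in prophase of the first meiotic division and full of stored maternal mRNA, came from females of C57BL/6J background, 4 weeks old, 48 h after injection of pregnant mare serum gonadotropin (PMSG). The KO group is CNOT7&8 KO, in which floxed Cnot7 and Cnot8 were deleted by Cre under the Zp3 promoter, active in growing oocytes, and the control group is labelled Zp3-Cre, so both groups carry the Cre transgene. Each group had 4 libraries of total RNA, each made from 100 pooled oocytes. Libraries are separate samples in the labels, without a statement of which animals they came from, and p-values therefore measure only the spread between these samples.

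A snoRNA host gene carries snoRNAs inside its introns. The spliced introns are trimmed to release the snoRNAs, which guide chemical modification or processing of ribosomal RNA, and the joined exons leave as a capped, polyadenylated RNA. The exon RNA often has only short reading frames and is typically short-lived, in many hosts because translation sends it to nonsense-mediated decay. CNOT7 and CNOT8 are the paralogous deadenylase subunits of the CCR4-NOT complex, which shortens poly(A) tails, a step that usually precedes decay of a cytoplasmic mRNA.

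The host RNAs did not move as 1 group. Snhg3, Snhg11 and Snhg4 were higher in KO oocytes, at 6.98, 4.08 and 3.91 times the control by the fitted fold change. Snhg4 reached the level needed for testing only through its KO libraries. Snhg5 was 1.39 times the control and Snhg6 fell to 69.9% of it, changes that passed the adjusted p but not the 2-fold threshold. Gas5, Snhg8 and Snhg12 did not pass the test. Of the 8 hosts tested, 3 were therefore called higher and 0 lower, with higher and lower defined as an adjusted p of at most 0.05 by edgeR's quasi-likelihood test and a fold change of at least 2. Among all 19241 genes tested, 23.8% were called higher and 6.56% lower, and 3 of 8 cannot be read as a result about hosts against that background. With the adjusted p alone, 4 hosts were higher and 1 was lower, beside 31.2% and 24.1% of all genes, and the same 1 host, Snhg6, was the one lower at an unadjusted p under 0.05.

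The ends of the annotated spliced transcripts are shown first because polyadenylated 3′ ends are what a deadenylase acts on. Stretches of 30 bases from the 3′ ends of 6 hosts hold a poly(A) signal, AATAAA or ATTAAA, marked in capitals. They are read 5′ to 3′ from the GENCODE vM21 transcript with the most exons. Each runs to the annotated end, except that of Snhg8, which stops just short of it.
Gas5: aattttaccATTAAAgtgtattataacatg
Snhg5: attgaAATAAAaaacattcaattgcaaata
Snhg6: ctcgtagtaaAATAAActcgtctttcatga
Snhg8: tattaAATAAAagatgtttggtgtgtaata
Snhg11: gagaaatcttctgtctcaAATAAAcaaaac
Snhg12: agttggttcAATAAAgacttttggaaagtg

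The signal ended from 6 bases before the annotated end in Snhg11 to 20 bases before it in Snhg8. Snhg3 had neither hexamer in the last 50 bases of this transcript, other annotated ends of Snhg3 were not examined, and no sequence of Snhg4 was used. Among tested genes with a transcript sequence, 65.9% held 1 of these signals in the last 50 bases, and 46.7% of the 4251 genes with spliced transcripts between 332 and 1329 bases, the range of the hosts. Hosts with a signal included Snhg11, which rose in KO oocytes, and Gas5, which did not pass the test.

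The spliced transcripts of the 7 annotated hosts were also searched for short motifs tied to mRNA regulation. TTTTAT, the core of the cytoplasmic polyadenylation element that is read by CPEB1 in oocytes, was found on the sense strand in Snhg8 only. It lies at base 413 of the 448-base transcript just upstream of the poly(A) signal. ATTTA, the core of AU-rich elements, was found in Snhg6 only, at base 366 of 473. The capitals mark the motif.
Snhg8: gaaaattgaataTTTTATattaaataaaag
Snhg6: aattaatatctaATTTAatattaataagtt

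TTTTAT was present in 53.9% of all tested genes with a sequence and in 21.0% of those in the hosts' length range. ATTTA was present in 72.0% and 41.5%. With 1 of 7 hosts each, these counts are descriptions without a test. A match describes the letters of the annotated transcript and not a binding site.

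Many snoRNA hosts are known as 5′ terminal oligopyrimidine genes, whose RNAs begin with a C followed by a run of pyrimidines. A C followed by at least 7 pyrimidines, from 10 bases before to 20 bases after the RefSeq start on the sense strand, was found in Snhg12 at chr4:132308668-132308697 of GRCm38.p6, plus strand. The capitals mark the tract of 8 bases, whose first base lies 2 bases before the annotated start.
Snhg12: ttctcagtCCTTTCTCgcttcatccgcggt

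No such tract was found in the windows of Gas5 (at both of its starts), Snhg3, Snhg5, Snhg8 or Snhg11, and Snhg4 and Snhg6 were not examined for it. Of the 12629 tested genes with a start window, 10.9% held the tract. The absence of the tract from a window says only that it is not at that annotated start, and shorter runs did not count. From the annotated start, 1 of the Gas5 windows reads ctttc and the Snhg8 window reads ctcttt.

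Counts summed to between 14943671 and 44092144 in control libraries and between 8639444 and 26784110 in KO libraries. Levels are given as CPM, the read count divided by the library total after edgeR's TMM scaling and expressed on the usual per-megaread scale. TMM factors lay between 0.849 and 0.943 for control and between 1.07 and 1.14 for KO libraries. The detection floor was set at 3 reads, worth 0.068 CPM of the unscaled total in control replicate 1, which was deepest, and 0.347 CPM in KO replicate 1, which was shallowest. Of the deleted genes, Cnot8 averaged 168 ± 20.01 CPM (SD, n = 4) in the control libraries against 35.2 ± 1.40 CPM in KO libraries, each of which was lower (log2 fold change -2.25, SE 0.12, edgeR adjusted p = 8.2e-08). Cnot7 was also lower in every KO library, at 933 ± 77.3 and 719 ± 70.8 CPM (-0.38, SE 0.11, edgeR adjusted p = 0.0105). Deviations from the group means were alike in control replicate 1 and KO replicate 4 (r = 0.37 across genes), so values without these libraries stand beside the results that move with them. In bulk libraries, fewer cells holding an RNA and less RNA per cell cannot be told apart.

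Gas5 was the most abundant host by counts. It encodes the growth arrest-specific transcript, and the annotation places 10 snoRNA genes on its strand within its span, the most of any host here. Its level was 27.7, 18.7, 22.5 and 21.6 CPM in control replicates 1 to 4. In KO replicates 1 to 4 it was 19.4, 19.99, 18.996 and 17.8 CPM. The KO values sat close together and overlapped the control values, 3 of which lay above all KO libraries. The log2 fold change was -0.25 (SE 0.15, 95% interval -0.57 to 0.068), and Gas5 did not pass edgeR's test (adjusted p = 0.164). Its sign was not stable to scaling, at 0.039 with library size alone and 0.0092 with TMM on genes of at least 10 CPM, scalings that shifted the median of all genes by 0.29 and 0.25 on the log2 scale.

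Snhg6, the host of the box C/D snoRNA Snord87, was lower in every KO library than in any control library. Control replicates 1 to 4 held 10.9, 11.7, 15.0 and 10.6 CPM. The KO replicates held 7.82, 9.28, 9.74 and 6.78 CPM. The highest KO value lay just under the lowest control value. On the log2 scale the difference was -0.52 (SE 0.18, 95% interval -0.91 to -0.12, edgeR adjusted p = 0.0282), which did not reach 2-fold. With library size alone the log2 fold change was -0.23 and the adjusted p 0.323, and over all alternatives the adjusted p ran from 0.018 to 0.323. Without KO replicate 4 the log2 fold change was -0.40 and edgeR's adjusted p 0.0936. The adjusted p was also above 0.05 without control replicate 2 (0.0519), control replicate 3 (0.0969) or KO replicate 1 (0.0789). It stayed under 0.05 when any other single library was left out.

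Snhg5, which carries the box C/D snoRNAs Snord50a and Snord50b, moved the other way. Its level was 7.22, 7.35, 8.44 and 7.28 CPM in control replicates 1 to 4. It was 9.12, 11.0, 11.5 and 10.3 CPM in the KO replicates. All KO libraries were above all control libraries, with the lowest KO value close above the highest control value. KO exceeded control by 0.47 on the log2 scale (SE 0.15, 95% interval 0.14 to 0.81, edgeR adjusted p = 0.0203), again short of 2-fold. The adjusted p ran from 0.00200 to 0.0562 over the alternatives.

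Snhg3 showed the largest fitted change of the 8 hosts. It is the host of the H/ACA snoRNAs Snora73a and Snora73b, also known as U17, which act in processing of the ribosomal RNA precursor. Only 12, 7, 4 and 5 reads were counted on it in control replicates 1 to 4, or 0.321, 0.345, 0.272 and 0.364 CPM. In the KO replicates 11, 44, 49 and 72 reads were counted, or 1.19, 2.42, 3.02 and 2.45 CPM. The control values were nearly equal, every KO value was above them, and KO replicate 1, the shallowest library, was the lowest of its group. This is a log2 fold change of 2.80 (SE 0.36, 95% interval 2.03 to 3.58, edgeR adjusted p = 4.27e-05). Snhg3 was called higher under all 18 alternatives, at log2 fold changes from 2.68 to 3.10.

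Snhg11, a host best known from neurons, rose from 1.33 ± 0.227 CPM in control to 5.51 ± 1.64 CPM in KO oocytes (n = 4 each). Control replicates 1 to 4 held 1.34, 1.38, 1.57 and 1.02 CPM. The KO replicates held 7.49, 6.15, 3.82 and 4.56 CPM. The groups did not overlap, and the lowest KO value was more than 2 times the highest control value. By the fit the log2 fold change was 2.03 (SE 0.27, 95% interval 1.45 to 2.61, edgeR adjusted p = 5.27e-05). It too was called higher under all 18 alternatives, from 1.89 to 2.31. GENCODE vM21 gives Snhg11 the type protein_coding as well as the tag ncRNA_host.

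Snhg4 was the scarcest host, and its call was the weakest. It carries H/ACA snoRNAs of the U19 family. Its reads numbered 17, 2, 0 and 1 in control replicates 1 to 4, or 0.454, 0.0987, 0 and 0.0728 CPM. The KO replicates had 14, 12, 13 and 11 reads, or 1.52, 0.659, 0.802 and 0.375 CPM. The 0 in control replicate 3 allows up to 0.192 CPM, and control replicate 1 lay above KO replicate 4, so the groups overlapped. Among the controls only replicate 1 reached 0.2 CPM, so Snhg4 passed the filter of 0.2 CPM in 2 libraries through the KO group. The log2 fold change was 1.97 (SE 0.72, 95% interval 0.40 to 3.53, edgeR adjusted p = 0.0346). Snhg4 was no longer called when control replicate 2, 3 or 4 or KO replicate 1 or 3 was left out, with log2 fold changes of 1.77, 1.67, 1.78, 1.64 and 2.01 and adjusted p from 0.0539 to 0.0852. Without control replicate 1 the log2 fold change was 3.54 (adjusted p = 0.00276), and without both that library and KO replicate 4, a choice made after seeing the data, it was 3.80 (adjusted p = 0.00091).

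Snhg12, which carries 5 annotated snoRNA genes including Snora44 and Snora61, was at 0.321, 0.197, 1.36 and 0.437 CPM in control replicates 1 to 4. The KO replicates were at 1.41, 1.70, 1.85 and 0.477 CPM. Control replicate 3 lay above KO replicate 4, so the groups overlapped. The log2 fold change was 1.28 (SE 0.59, 95% interval -0.0004 to 2.57), and the adjusted p of 0.0826 by edgeR missed the threshold. Snhg12 was called higher without control replicate 3 (log2 fold change 2.08, adjusted p = 0.00903), without KO replicate 4 (1.64, 0.0243), and without both control replicate 1 and KO replicate 4 (1.37, 0.0434). It was also called with library size alone (1.56, 0.0491).

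Snhg8, the host of the H/ACA snoRNA Snora24, was at 0.535, 1.33, 1.22 and 1.09 CPM in control replicates 1 to 4. The KO replicates were at 1.30, 1.65, 2.16 and 0.511 CPM, so the lowest value of all 8 libraries was in the KO group. Its log2 fold change was 0.43 (SE 0.45, 95% interval -0.55 to 1.41, edgeR adjusted p = 0.434). This interval reaches past 2-fold on the upper side, so it does not bound the increase below that size. The host had 80 control and 92 KO reads in all. KO replicate 4 was the lowest KO library for Snhg8, Snhg12, Snhg4, Snhg6 and Gas5, 5 of the 8 hosts. Results that change without that library are given with the hosts concerned.

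**Figure D1:**
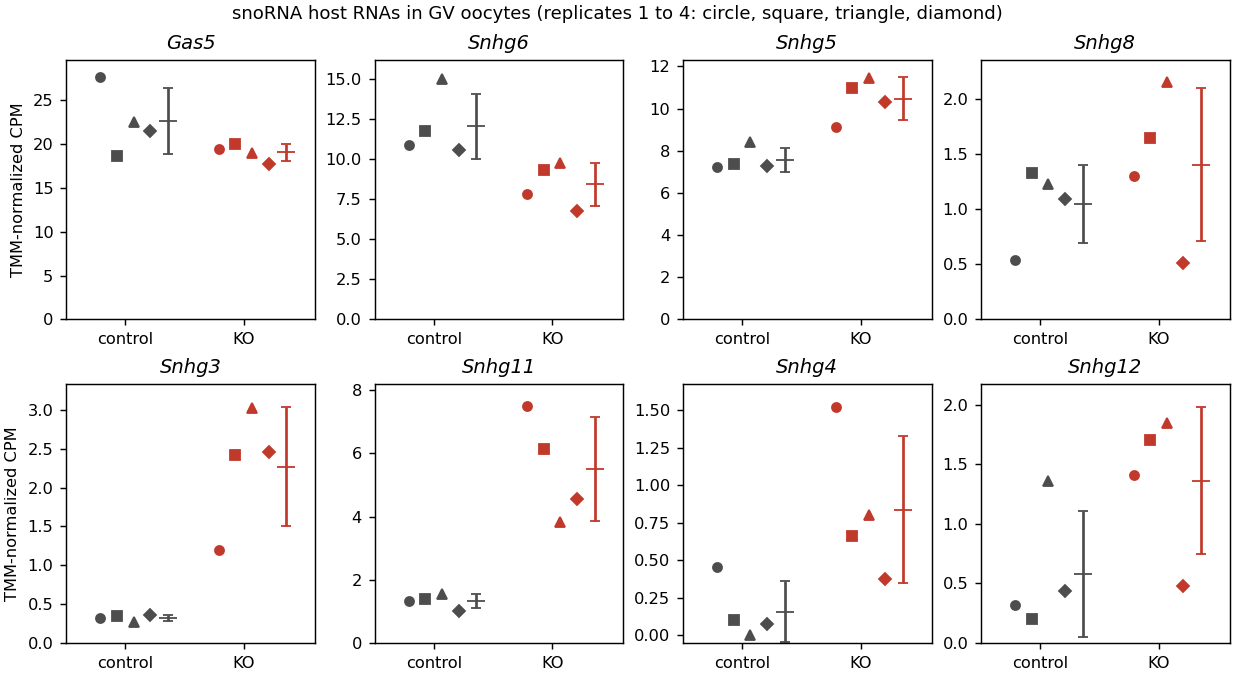
TMM-normalized CPM (linear axes) of the 8 hosts in each library, control in grey and KO in red, with replicates 1 to 4 as circle, square, triangle and diamond and bars for the mean and SD of 4 libraries. Snhg3, Snhg11 and Snhg5 have every KO library above the control libraries, Snhg6 has every KO library below them, and the groups overlap in Gas5, Snhg8, Snhg4 and Snhg12; the SD bar of Snhg4 in control runs under 0 because its SD of 0.203 CPM exceeds its mean of 0.157 CPM.

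In all, 3 hosts had every KO library above every control library and 1 had every KO library below. Among all genes tested, 27% and 21.4% were separated in these directions. Fold changes were above 1 for 6 hosts and below 1 for 2, although Gas5 changed sign with the scaling. The median log2 fold change of the hosts was 0.88, compared with 0.12 over all genes and 0.54 over the 1936 tested genes annotated as long noncoding, of which 28.7% were called higher and 6.66% lower.

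**Figure D2:**
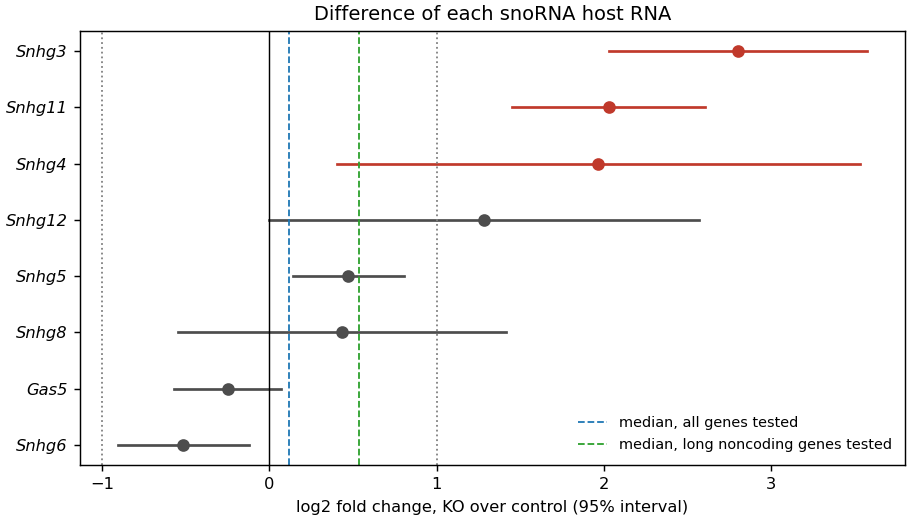
Log2 fold change of each host, KO over control, with its 95% interval from edgeR's quasi-likelihood fit to 8 libraries, beside lines at no change, at 2-fold and at the medians of all genes tested (0.12, blue) and of long noncoding genes (0.54, green). Hosts called higher are red. The intervals of Snhg3 (2.03 to 3.58) and Snhg11 (1.45 to 2.61) lie wholly above 2-fold, those of Snhg4, Snhg5 and Snhg6 leave out 0 but hold changes under 2-fold, and those of Gas5, Snhg8 and Snhg12 include no change.

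The hosts span a wide range of levels, and fold changes in this table vary with level. Gas5 and Snhg6, the 2 hosts with a mean of 10 to under 100 CPM, had log2 fold changes below 0, though Gas5 did not pass the test and changed sign with the scaling. The 6 hosts under 10 CPM had values above 0, of which 4 passed the adjusted p. Over tested genes the median log2 fold change was -0.37 at 100 CPM or more, -0.17 at 10 to under 100 CPM, 0.47 at 1 to under 10 CPM and 1.05 under 1 CPM. The filter admits a low gene through 1 group alone, as it did Snhg4. Of the 5482 genes under 1 CPM, 394 had no control reads and 6 had no KO reads. At 1 to under 10 CPM, the range of Snhg3, Snhg11, Snhg5 and Snhg8, 35.7% of tested genes were called higher and 8.23% lower. Under 1 CPM, the range of Snhg4 and Snhg12, the shares were 35.5% and 3.27%, and in the range of Gas5 and Snhg6 they were 12.7% and 8.3%. Whether the level of a host has a part in its change was not tested.

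**Figure D3:**
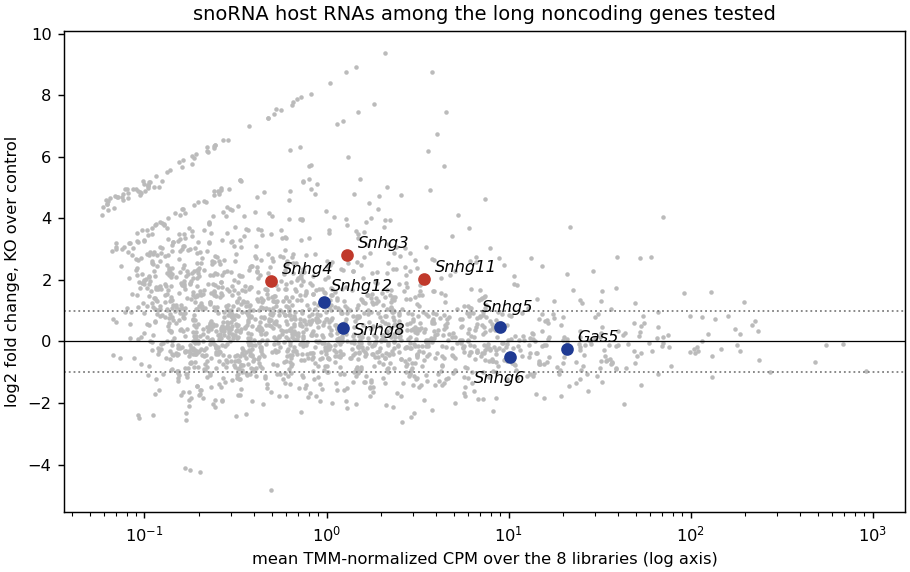
Log2 fold change (KO over control) against the mean CPM of 8 libraries on a log axis, with the 1936 tested genes annotated as long noncoding in grey and the 8 hosts in color. The hosts lie within the cloud of other long noncoding genes; Snhg11 is annotated as protein-coding and Snhg4 had no annotation used here, so both are drawn as hosts only, and the diagonal edge at upper left holds genes without control reads, whose fitted fold depends on the prior count.

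The summed level of the 8 hosts hid these opposite movements. The sum was 48.7, 41.1, 50.4 and 42.4 CPM in control replicates 1 to 4 and 49.3, 52.8, 51.9 and 43.3 CPM in the KO replicates, so the groups overlapped. Gas5 and Snhg6 together made up 79.1%, 74.0%, 74.5% and 75.8% of that sum in the control libraries. In the KO libraries they made up 55.3%, 55.4%, 55.4% and 56.8%. The other 6 hosts summed to between 10.2 and 12.9 CPM in control and between 18.7 and 23.6 CPM in KO libraries. These shares are descriptions of the members and carry no test.

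**Figure D4:**
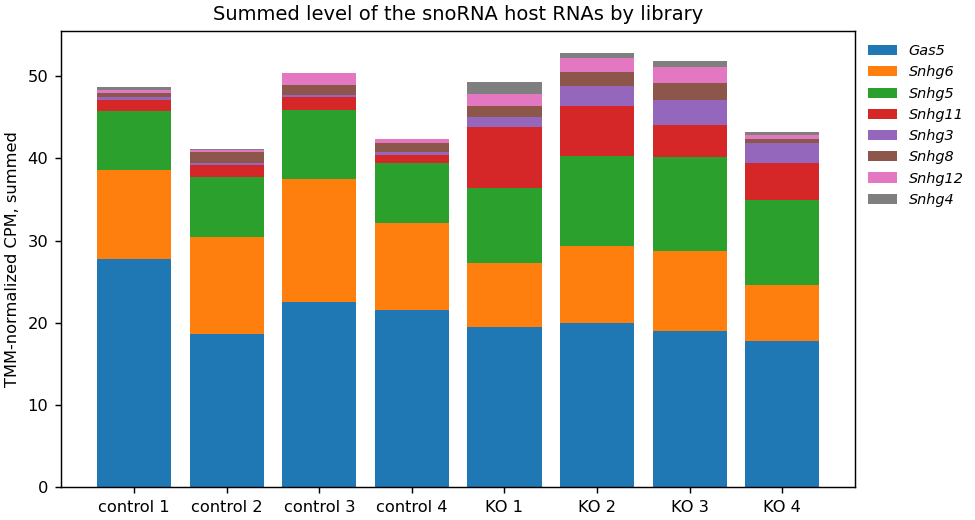
TMM-normalized CPM of the hosts stacked in each of the 8 libraries, on an axis from 0. Summed levels overlap between control (41.1 to 50.4 CPM) and KO libraries (43.3 to 52.8 CPM), whereas the stretch above Gas5 and Snhg6 is taller in every KO library.

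The order of the hosts per length depended on which length was used. RPKM, the CPM divided by the length of all annotated exons in kilobases, could be given for the 7 hosts with an annotated exonic length. In control oocytes Snhg6 was highest at 10.5 ± 1.76 RPKM, followed by Gas5 at 6.01 ± 1.002, Snhg5 at 4.38 ± 0.335 and Snhg8 at 1.23 ± 0.416 RPKM. Snhg3, Snhg12 and Snhg11 came last at 0.330 ± 0.0404, 0.241 ± 0.221 and 0.156 ± 0.0266 RPKM. Each control neighbour was separated over the 4 libraries down to Snhg3, and Snhg3, Snhg12 and Snhg11 overlapped in that order. In KO oocytes the order was Snhg6 (7.34 ± 1.19 RPKM), Snhg5 (6.05 ± 0.588), Gas5 (5.07 ± 0.250), Snhg3 (2.30 ± 0.781), Snhg8 (1.65 ± 0.811), Snhg11 (0.646 ± 0.193) and Snhg12 (0.566 ± 0.257). There only Gas5 and Snhg3 were separated as neighbours. Divided instead by the spliced length of the transcript with the most exons, a choice made after seeing the data, Gas5 (502 spliced bases against 3760 exonic) was highest in both groups. It then stood at 45.0 ± 7.51 CPM per kilobase in control and 38.0 ± 1.87 in KO oocytes, above Snhg6 at 25.4 ± 4.27 and 17.8 ± 2.88, with no overlap of the libraries. Which transcripts the reads came from was not tested.

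The hosts lie at separate places in the genome apart from Snhg3 and Snhg12. In GRCm38, Gas5 (ENSMUSG00000053332) is at chr1:161034422-161038539 on the plus strand and Snhg6 (ENSMUSG00000098234) at chr1:9941959-9944118 on the minus strand. Snhg3 (ENSMUSG00000085241) is at chr4:132348014-132353686 on the minus strand, and Snhg12 (ENSMUSG00000086290) is nearby at chr4:132308623-132311024 on the plus strand. Snhg5 (ENSMUSG00000097195) is at chr9:88521050-88522929 and Snhg8 (ENSMUSG00000104960) at chr3:123507552-123508404, both on the minus strand. Snhg11 (ENSMUSG00000044349) is at chr2:158375638-158386145 on the plus strand. Snhg4 is ENSMUSG00000097769, and its position was not used here. All 7 annotated hosts carry the tag ncRNA_host, and the transcripts with the most exons run from 3 in Snhg8 to 12 in Gas5.

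Reads of neighbouring genes can reach the host counts, since the strand setting of the counting is not given in the sources used here. Nearly all of Snhg3, 5592 bases, lies inside the span of Rcc1 on the same strand, with starts 81 bases apart, and 135 exonic bases are shared. Rcc1, which encodes the nucleotide exchange factor of the GTPase Ran, was at 35.8, 43.4, 36.9 and 41.4 CPM in control replicates 1 to 4. In the KO replicates it was at 34.5, 33.2, 33.9 and 27.6 CPM, below every control library (log2 fold change -0.29, SE 0.13, edgeR adjusted p = 0.0710). Snhg3 and Rcc1 thus had opposite signs. Gm17300, which covers 71.5% of the exonic bases of Snhg3 on the other strand, had 5 reads in all 8 libraries. Zbtb37, a zinc finger gene that overlaps the start of Gas5 by 428 bases on the other strand, was not called (edgeR adjusted p = 0.254), and Mcmdc2, which overlaps 127 bases of Snhg6, had 9 reads in all.

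The snoRNAs inside the hosts were counted unevenly. The annotation places 23 snoRNA genes within the 7 hosts, of which 19 lie whole inside an annotated exon of another gene on the same strand, and all 19 had 0 counts. The other 4 had counts, 7335 of 7364 of them on Snora73b. Over the whole table, 20.7% of 164 snoRNA genes that lie whole inside another gene's exon had a count, as did 20.2% of the other 1394. Snora73a and Snora73b are close copies, and how the authors' counting split reads between copies is not given in the sources used here.

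Snora73b, 205 bases long, is the 1 abundant snoRNA of the hosts, and lies in an intron of Snhg3. Its last 30 bases end in the ACA box that gives H/ACA snoRNAs their name, in capitals, 3 bases before the end.
Snora73b: ctgaggagacaaaccatgcaggaaACAaaa

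Snora73b did not follow Snhg3. It also lies within the span of Rcc1 on the same strand, and which of these genes it came from was not tested. Control replicates 1 to 4 had 45.1, 40.7, 71.4 and 66.9 CPM. The KO replicates had 47.7, 67.4, 36.2 and 20.5 CPM. The groups overlapped widely, and KO replicate 4 was the lowest of all. The log2 fold change was -0.39 (SE 0.30, 95% interval -1.04 to 0.27, edgeR adjusted p = 0.295).

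The log2 ratio of Snora73b to Snhg3 counts, with 0.5 added to each, does not depend on library size. It was 7.08, 6.78, 7.87 and 7.39 in control replicates 1 to 4 and 5.26, 4.79, 3.57 and 3.05 in the KO replicates. Every KO value was below every control value, and the difference of the means was -3.11. Rcc1, which also spans Snora73b and had a higher level than Snhg3, is not part of this ratio. The exact permutation test over 70 assignments gave a two-sided p of 0.0286, the smallest it can give, and 0.0571 with Benjamini-Hochberg adjustment over the 2 hosts with such a snoRNA. At this size the design cannot pass 0.05 after that adjustment unless both hosts differ. The other host was Snhg11, whose snoRNA Gm25129 had between 0 and 7 reads a library, and whose ratio differed by 0.066 (exact permutation p = 0.943). Gm25129 passed the filter through KO replicates 1 and 2 alone, so the adjustment over 2 hosts rests on those libraries.

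**Figure D5:**
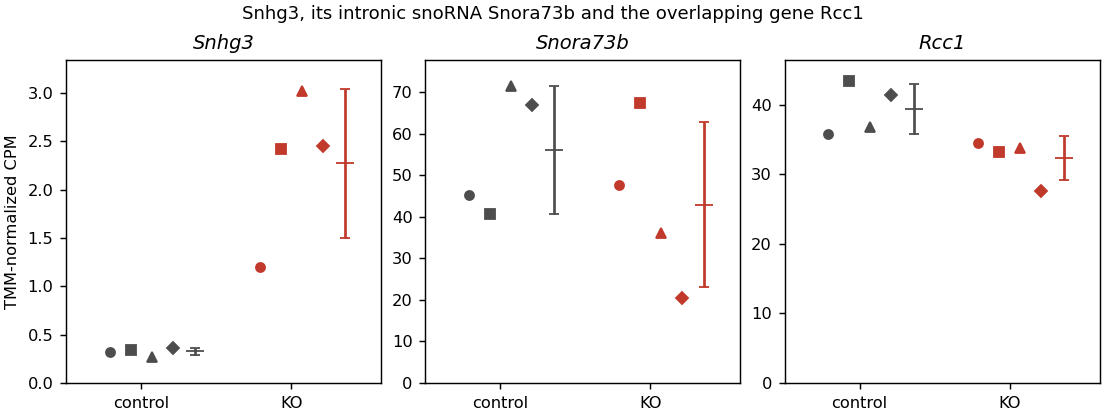
TMM-normalized CPM (linear axes from 0) of Snhg3, of Snora73b within its intron and of Rcc1, the overlapping protein-coding gene, in each library, with replicates 1 to 4 as circle, square, triangle and diamond and bars for the mean and SD of 4 libraries. Snhg3 is higher in every KO library, Snora73b overlaps between the groups and Rcc1 is lower in every KO library.

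Other genes of the pathway were read from further lists. Beside the counts given for these lists, 23.8% of all genes tested were called higher and 6.56% lower. With the adjusted p alone, 31.2% were higher and 24.1% lower. Of 8 tested noncoding snoRNA hosts outside the members, 1 was called higher and 0 lower, with a median log2 fold change of 0.29, and 2 were higher and 0 lower by edgeR's adjusted p alone. The called host was Snhg9, with 0.107, 0.888, 0.476 and 0.947 CPM in control replicates 1 to 4. Its KO replicates had 0.869, 2.14, 4.13 and 0.647 CPM, which overlap the control values (log2 fold change 1.78, SE 0.68, edgeR adjusted p = 0.0401). Snhg18 was at 28.1 ± 3.65 CPM in control and 28.2 ± 2.54 CPM in KO oocytes, a level near that of Gas5, and is named after its values were seen.

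Protein-coding snoRNA hosts, many of them ribosomal protein and translation factor genes, had log2 fold changes mostly below 0. Of 37 tested, 1 was called higher and 2 lower, and by the adjusted p alone 3 were higher and 19 lower, with a median of -0.42. By the adjusted p alone 31.2% of all genes were higher and 24.1% lower. The median was -0.37 over tested genes of at least 100 CPM, a range that holds many of these hosts. Over the 250 protein-coding hosts taken from the annotation, given below, it was -0.091, so the low median is not read as a trait of hosts. Cct6a, a subunit of the cytosolic chaperonin, rose from 10.1 ± 4.31 to 68.2 ± 8.82 CPM (log2 fold change 2.74, edgeR adjusted p = 5.13e-06). Ppan, a ribosome biogenesis factor, was at 87.0 ± 35.8 and 39.7 ± 15.0 CPM (-1.14, edgeR adjusted p = 0.0127), and Eef2, the translocase of translation elongation, at 338 ± 112 and 162 ± 52.9 CPM (-1.06, edgeR adjusted p = 0.00625). In both Ppan and Eef2 the groups overlapped, with control replicate 1 the lowest control library.

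Proteins that build snoRNA particles were called in both directions. Of 16 tested, 1 was higher and 2 lower, with a median log2 fold change of -0.23. Znhit3, an assembly factor of box C/D particles, rose to 228% of control (log2 fold change 1.19, edgeR adjusted p = 0.000251). Gar1, a core protein of H/ACA particles, fell by 1.07 on the log2 scale (edgeR adjusted p = 0.000391), and Ruvbl2, an ATPase of the assembly machinery, by 1.30 (edgeR adjusted p = 0.00767). In Ruvbl2 the groups overlapped, with control replicate 1 at 52.9 CPM and KO replicate 3 at 81.0 CPM.

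Nonsense-mediated decay factors included Upf1, which had the largest called decrease in the pathway lists examined here. Of 15 tested, 1 was called higher and 3 lower, with a median log2 fold change of -0.33. Upf1, the RNA helicase at the center of the pathway, was at 246, 418, 306 and 378 CPM in control replicates 1 to 4 and at 133, 109, 148 and 88.0 CPM in the KO replicates. Every KO library was below every control library (log2 fold change -1.50, SE 0.19, edgeR adjusted p = 4.16e-05). Smg9, a partner of the kinase that phosphorylates UPF1, fell by 1.23 on the log2 scale (edgeR adjusted p = 0.00359), and Smg5, which binds phosphorylated UPF1, rose by 1.15 (edgeR adjusted p = 0.000202). For Smg9 the groups overlapped, with control replicate 1 at 5.24 CPM and KO replicate 3 at 5.86 CPM. The third lower gene was Eif4a3 of the exon junction complex (-1.11), named after its value was seen because it lies outside the rule for named genes. Whether these levels have a part in those of the hosts was not tested.

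Long noncoding RNAs that are known for roles other than hosting these snoRNAs were read as well. Of 14 tested, 6 were called higher and 0 lower, with a median log2 fold change of 1.46. By edgeR's adjusted p alone 8 were higher and 2 lower, beside 31.2% and 24.1% of all genes tested. Among the 1936 tested genes annotated as long noncoding, 28.7% were called higher and 6.66% lower. Mirg, a transcript of the imprinted Dlk1-Dio3 region that carries microRNAs, rose from 0.0854 ± 0.0592 to 1.91 ± 1.01 CPM (log2 fold change 4.25, edgeR adjusted p = 0.000125). Control replicates 1 to 4 held only 4, 2, 2 and 0 Mirg reads, so the size of this fold is uncertain. Mirg passed the filter through the KO group alone. Miat had 1 read in all control libraries and 49 in KO libraries, and 1 control read is too few for a fold change.

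The identity of the samples was read from marker lists. Of 11 oocyte markers none was called in either direction by edgeR's test, although 1 was higher and 6 lower by the adjusted p alone. Over all genes tested, 31.2% were higher and 24.1% lower by that measure. The summed level of the oocyte markers was 18286 to 21341 CPM in control and 15099 to 17444 CPM in KO libraries. Of 12 tested granulosa and cumulus markers 6 were called higher and 0 lower, with summed levels of 141 to 181 CPM in control and 260 to 324 CPM in KO libraries. Among all genes tested 23.8% were called higher. The share was 35.7% at a mean of 1 to under 10 CPM and 12.7% at 10 to under 100 CPM, the ranges of these 6. Ptgs2, the inducible prostaglandin synthase of cumulus cells, rose from 2.94 ± 0.797 to 36.7 ± 5.53 CPM (log2 fold change 3.65, edgeR adjusted p = 1.8e-07), and Inha, the inhibin alpha subunit, from 6.86 ± 2.31 to 25.9 ± 15.0 CPM (1.91, edgeR adjusted p = 0.00513). The other 4 called higher were Fshr, Kitl, Inhba and Nr5a2, at log2 fold changes from 1.11 to 1.56. Foxl2, a defining granulosa factor, was near 0 in both groups (0.0293 and 0.0271 CPM), and Cyp19a1, which makes estrogen, was 58.5 CPM in control and 31.3 CPM in KO oocytes (-0.90, edgeR adjusted p = 0.000507), short of 2-fold. Of 3 tested blood and immune markers 2 were higher, Ptprc and Cd68, the list summing to 0.882 to 1.88 CPM in control and 3.15 to 5.43 CPM in KO libraries, with 4 globin genes at 0 in every library. Theca and stroma markers summed to 3.27 to 6.41 CPM in control and 3.47 to 5.11 CPM in KO libraries. The granulosa and immune sums moved with the same contrast as Snhg3, Snhg4 and Snhg11, and their part in the host levels was not tested.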

How the data were processed

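Total RNA of GV oocytes was measured in 8 libraries (4 KO, 4 control), grouped by the genotype and replicate number in the labels. The labels name a stranded total RNA kit with ribosomal RNA removal, and the methods of the study a stranded mRNA kit used with ribosomal RNA depletion. The authors ran the nf-core/rnaseq pipeline with STAR against GRCm38 (STAR 2.6.1d and edgeR 3.11 in the submitters' processing notes) and deposited raw read counts per gene. The pipeline's counting tool, annotation release and strandedness are not given in the sources used here. Of the gene identifiers, 98.2% were found in GENCODE vM21.

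Tests used edgeR 4.0.16 and limma 3.58.1 under R 4.3.3. Genes with at least 0.2 CPM in 2 libraries were tested over the whole table with TMM scaling and the quasi-likelihood test of edgeR, with Benjamini-Hochberg adjusted p. Calls needed a 2-fold change in addition to an adjusted p no higher than 0.05. CPM values use the TMM-scaled library size. DESeq2 1.42.0, edgeR's exact test, other scalings, filters and thresholds, the replicate block, and leaving out libraries were alternatives. Ratios used an exact permutation test. Start windows came from RefSeq (GRCm38.p6), and other annotation and sequence from GENCODE vM21. Python 3.11.15 with pandas 2.3.3 and matplotlib 3.10.9 read the annotation and drew the plots.

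The members, gene lists and tests were chosen with earlier results of these data known. Named genes were every member, its counted snoRNAs and overlapping genes, at most the 2 largest called changes in each direction of each list, and the 3 genes most like the members' mean. Zfas1, Snhg15, Epb41l4aos, Rack1 and Snu13 had no row under these symbols and were matched by identifier through their GENCODE vM21 symbols. Low counts limit precision, and 3 counts are worth 0.347 CPM in the shallowest library; this floor reflects counting error alone, as duplicates from PCR are no separate molecules.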

Additional observations from a re-analysis of the deposited data

Results flagged for a closer look

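Among the 16 groups of 4 libraries formed by the 8 hosts and 2 genotypes, 1 had a library standing apart from its group by Dixon's criterion. Snhg5 in control replicate 3 was at 8.44 CPM, and the other 3 control libraries lay between 7.22 and 7.35 CPM. Chance gives about 1 such group in 20. The value remained under every KO library.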

How the results depend on the processing

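Of 143 values of single hosts recomputed under the alternatives, 131 kept their direction and their side of the threshold, 5 gained a call (all Snhg12), 5 lost it (all Snhg4) and 2 changed sign (Gas5, at 0.039 with library size alone and 0.0092 with TMM on genes of at least 10 CPM). The number of hosts called higher ran from 2 to 4 when 1 library was left out, and was 4 with library size alone, 4 with the replicate block, 4 without both control replicate 1 and KO replicate 4, and 2 with a filter of 1 CPM in 4 libraries, which dropped Snhg4. The number called lower was 0 in each of these, and 1 with no fold threshold (Snhg6). edgeR's exact test and DESeq2 both called 3 higher and 0 lower. Over the whole table, library size alone called 29.3% higher and 3.05% lower, against 23.8% and 6.56% with TMM.

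The difference in the Snora73b to Snhg3 log2 ratio ran from -3.48 to -2.74 when 1 library was left out. That of Snhg11 changed sign, at -0.37 with 1 count added, and from -0.34 to 0.52 when 1 library was left out; it rests on 0 to 7 snoRNA reads a library, and the cause was not tested. Same-numbered libraries of both groups did not deviate together (r = -0.072, -0.042, 0.11 and -0.12 across genes, and 1 of 8 libraries was most like its own number), so the numbers were not taken as pairs. With the replicate block, 4316 genes were higher and 1254 lower, compared with 4582 and 1263 without it, and Snhg12 was called (log2 fold change 1.39, adjusted p = 0.0402).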

Other observations

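Hosts were also taken from the annotation instead of by name, a choice made after seeing the data. Of 35 tested noncoding genes outside the members with a snoRNA gene inside them on their strand, 13 (37.1%) were called higher and 0 lower by edgeR's test, with a median log2 fold change of 0.73. Of 250 such protein-coding genes, 40 (16.0%) were called higher and 8 (3.2%) lower, with a median of -0.091. Among all 19241 genes tested the shares were 23.8% and 6.56%. Among the 1936 tested genes annotated as long noncoding they were 28.7% and 6.66%, with a median of 0.54.

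The genes outside the members whose log2 CPM over the 8 libraries was most like the mean of the hosts were 4930432L08Rik (Pearson r = 0.990), Gm16933 (0.983) and Arhgef40 (0.981). The 8 libraries of these correlations share the contrast between the groups, so they are descriptions. Arhgef40 was called higher in KO oocytes (log2 fold change 2.53), Gm16933 was not called (0.55), and 4930432L08Rik had no reads in control libraries.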
